A study of Mus musculus with 16 samples.

Results

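The comparison described here is that of B1a cells from B6.Sle2c1 mice with B1a cells from C57BL/6 (B6) mice. Its members are the 8 arrays titled B1a, 4 from each strain, among the 16 arrays of the series. The other 8 arrays hold splenic B cells (Bs), 4 from each strain, and serve below only to show where the B1a difference departs from theirs. B6.Sle2c1 is a congenic line, a B6 mouse that carries the Sle2c1 lupus susceptibility segment of the NZM2410 strain, so that every gene of the segment can differ between the lines and not only the candidate Cdkn2c. All mice were 5 months old per the labels, which give no sex. Peritoneal cells were held in culture for 2 h with 10% serum so that macrophages would adhere and could be left behind, then depleted of T cells with antibodies to Thy1.2 and CD3ε, and selected with an antibody to CD5. The stated outcome was a population with about 80% of B220-intermediate, CD5+ cells. The series' design text calls the 4 arrays of a group biological replicates; whether an array stands for 1 mouse or a pool is not stated.

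B1a cells are the CD5+ B cells that prevail in the peritoneal and pleural cavities, renew themselves there, and secrete natural IgM as well as Il10. They are expanded in several lupus-prone mouse strains. Cdkn2c encodes p18INK4c, an inhibitor that binds the kinases Cdk4 and Cdk6 and keeps them from phosphorylating the retinoblastoma protein, which holds a cell in G1. It is also known for a part in ending proliferation as B cells become plasma cells.

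The deposited values are the authors' normalised signals on a scale whose base and origin are not stated, called units below, so that differences are given in units and never as folds. On each array many probe sets shared exactly the array's lowest value: 27.6% to 35.6% of all probe sets on the 8 B1a arrays, at -6.28 to -4.99 units. A tied lowest value carries no order and no size. All values under 0.495 units, the median over arrays of each array's 40th percentile, were therefore raised to 0.495, called the floor. A feature is a named gene, read from 1 probe set, or a probe set with no single gene. Of 22727 features, 9715 were above the floor on all 8 B1a arrays and are called well measured. Another 181 appeared, being at the floor on all 4 B6 arrays and above it on all 4 Sle2c1 arrays, and 107 vanished, the reverse. A further 12566 lay between, at the floor on some arrays of a strain, and 158 were at the floor on all 8. For features at the floor throughout a group, a difference is a lower bound of its size, written "at least".

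The arrays of B6_B1a resembled each other more (correlations of 0.941 to 0.971 over features) than those of Sle2c1_B1a (0.83 to 0.922). The Sle2c1_B1a array 4 stood apart, with correlations of 0.83 to 0.859 to its own group, against 0.913 to 0.922 among the other 3. Sle2c1_B1a array 1 correlated with the B6_B1a arrays (0.919 to 0.93) at least as highly as with arrays 2 and 3 of its own group (0.913 to 0.917). The label was borne out in part. The B cell genes Ms4a1 (3.81 ± 0.0263 units in B6, SD, n = 4, and 3.75 ± 0.0386 in Sle2c1), Bank1 and Pou2af1 read high in both strains. Pax5, also a B cell gene, read near the floor, 0.631 units in B6 and 0.661 in Sle2c1, and was above it on 1 array of each strain. Cd5 itself read low, 1.08 ± 0.304 units in B6 and 0.745 ± 0.342 in Sle2c1, and was above the floor on 4 B6 and 2 Sle2c1 arrays. Xist, the transcript of the inactive X chromosome, read 3.26 to 3.34 units on all 8 B1a arrays and no more than 1.12 on the 8 Bs arrays, while the Y-linked Eif2s3y was at the floor on 7 of the 8 B1a arrays and read 3.12 to 3.35 on the Bs arrays. Cell type and these sex-linked levels cannot be told apart wherever B1a and Bs are set side by side.

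Over all features, 439 were higher in Sle2c1_B1a (1.93% of those tested) and 329 lower (1.45%), or 3.38% in either direction, by limma at a Benjamini-Hochberg adjusted p under 0.05. An unadjusted p under 0.05 was reached by 3904. The groups did not overlap for 655 of the 768 called features, against 8.38% of all features. Well-measured features made up 57 of the 439 higher and 91 of the 329 lower (0.587% and 0.937% of the 9715). Most calls therefore came from features that were at the floor on 1 or more arrays. The median difference was 0.025 units over all features and -0.005 over the well-measured ones.

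**Figure D1:**
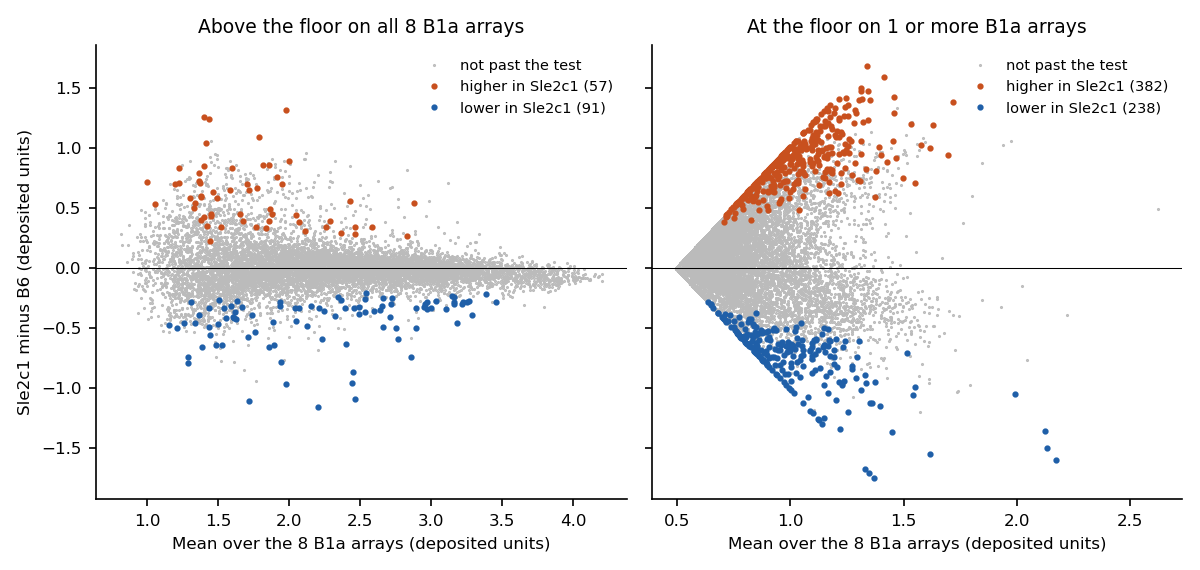
Difference between the strains (Sle2c1 minus B6, in deposited units) against the mean over the 8 B1a arrays, for features above the floor on all 8 arrays (left) and for the rest (right); coloured points passed the test. On the left, 57 were higher and 91 lower, and the lower ones reached further to the high levels; on the right the straight edges are set by the floor.

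Cdkn2c, which the series is titled for, fell in Sle2c1_B1a. It read 1.19, 1.27, 1.04 and 1.35 units on the B6 arrays and 0.58, 0.88, floor and floor on the Sle2c1 arrays. The groups did not overlap, and the Sle2c1 values ended at the background. The difference was -0.60 units (SE 0.102, adjusted p = 0.00392; exact permutation test over 8 arrays, two-sided, p = 0.0286, the smallest that 4 against 4 allow). It kept the call without any 1 of the 8 arrays (adjusted p 0.00111 to 0.0154). Its size and call moved with the treatment of low values: -3.48 units with no floor (adjusted p = 0.406), -1.03 with the floor at the 30th percentile (0.067) and -0.21 with the floor at 1 unit (0.189). No other probe set of the array reads Cdkn2c.

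The promoter of Cdkn2c is shown because this gene carries the comparison. It is the 250 bases before the start site in RefSeq's GRCm38.p6, chr4:109666757-109667006 on the minus strand, written 5′ to 3′ with matches to the GC box, the letters GGGCGG on either strand, in capitals. The promoters of Il6 (chr5:30012864-30013113, plus strand) and Cxcl1 (chr5:90890995-90891244, plus strand), secreted inflammatory mediators that are among the named lower genes described next, are shown with matches to a κB-like motif, GGGANTTTC on either strand, in capitals. The motifs and these 2 genes were chosen after their values were seen.
Cdkn2c: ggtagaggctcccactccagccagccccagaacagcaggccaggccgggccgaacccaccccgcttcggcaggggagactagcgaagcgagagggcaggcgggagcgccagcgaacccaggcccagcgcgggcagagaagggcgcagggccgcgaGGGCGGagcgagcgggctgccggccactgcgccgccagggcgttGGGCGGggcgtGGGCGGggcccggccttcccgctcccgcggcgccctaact
Il6: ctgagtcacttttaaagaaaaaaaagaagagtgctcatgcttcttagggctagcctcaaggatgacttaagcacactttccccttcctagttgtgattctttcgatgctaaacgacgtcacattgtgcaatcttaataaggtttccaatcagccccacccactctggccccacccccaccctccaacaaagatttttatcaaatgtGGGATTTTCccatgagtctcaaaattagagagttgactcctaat
Cxcl1: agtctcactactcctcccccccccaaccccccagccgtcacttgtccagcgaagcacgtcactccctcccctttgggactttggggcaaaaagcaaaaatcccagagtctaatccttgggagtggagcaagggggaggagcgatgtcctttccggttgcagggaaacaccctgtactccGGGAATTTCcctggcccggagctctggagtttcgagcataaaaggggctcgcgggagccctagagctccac
The Cdkn2c promoter held 3 matches, ending 90, 46 and 35 bases before the start site. A GC box was present in 35.4% of all promoters in 56.6% of those of the named genes tested and in 69.0% of the 71 found for well-measured lower genes. A second Cdkn2c start site in RefSeq had none in its 250 bases. The κB-like motif was present in 1.11% of all promoters, in 1.06% of those of the named genes tested and in 2 of those 71 (2.82%). The AP-1 motif TGANTCA, also read on either strand, was present in 7.82% of all promoters, in 6.34% of those of the named genes tested and in 5 of those 71 (7.04%). For the 21 promoters found for well-measured higher genes the shares were 47.6% (GC box), 0.0% (κB-like) and 9.52% (AP-1), and for the 38 of vanishing genes 71.1%, 0.0% and 10.5%. A match is a description of these letters only.

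Around Cdkn2c on chromosome 4, 3 of the 100 nearest named genes tested, 50 on either side, were called, all 3 of them lower. That is 3.0%, beside 3.38% of all features called in either direction and 1.45% called lower. Cdkn2c itself is not in this count. Tceanc2, which has a domain of transcription elongation factors, read 1.95, 1.81, 1.77 and 1.51 units in B6 and was at the floor on all 4 Sle2c1 arrays, a fall of at least 1.26 (adjusted p = 2.57e-07). Ndc1, a nuclear pore protein, fell from 1.82 ± 0.101 to 0.807 ± 0.45 units (-1.01, adjusted p = 0.00303). Its 2 other probe sets did not pass and had differences of 0.13 and 0.26. Yipf1, a Golgi membrane protein, fell by 0.39 (adjusted p = 0.0481), and leaving out any array but Sle2c1_B1a 3 ended the call (0.0576 to 0.122). In splenic B cells, Tceanc2 (-1.68, adjusted p = 3.95e-08) and Cdkn2c (-0.89, adjusted p = 0.00114) were also lower.

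Among well-measured features, named genes made up a larger share of the lower calls than of the higher calls. Of the 91 lower, 85 were named, and of the 57 higher, 32 were named. Features without a single gene made up 6.59% and 43.9% of them. They were 21.9% of all well-measured features and 33.4% of all features. The 2 sets also differed in level. With means of 1 to 2 units, 44 of 3850 rose and 36 fell. With means of 2 to 3 units, 12 of 4221 rose and 41 fell, and above 3 units, 0 of 1584 rose and 14 fell. The whole of that highest band had a median difference of -0.038, against -0.004 and 0.008 in the bands below it, and the highest value of an array was 4.77 to 4.79 in B6 and 4.58 to 4.74 in Sle2c1. In that band, the median SD between arrays was 0.0408 in B6 and 0.0497 in Sle2c1, against 0.113 and 0.203 at 1 to 2 units. Other probe sets of the same genes gave a further reading. For genes of the well-measured lower set, 92 of 115 other probe sets (80.0%) also had a negative difference and 21 were called lower; for the higher set, 16 of 31 (51.6%) had a positive one and 1 was called. Of 11978 other probe sets of genes not called, 49.9% had a negative and 49.1% a positive difference, and 1.73% and 1.72% were called. Probe sets of 1 gene share the RNA of the same 8 arrays and are no further replicates.

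The 15 named well-measured genes that fell most in Sle2c1_B1a are given by role, secreted proteins first. Cxcl13, the chemokine that draws B cells into the peritoneal cavity and follicles, read 3.04, 1.97, 2.75 and 3.36 units in B6 and 1.87, 1.71, 1.55 and 1.37 in Sle2c1. The groups were separate, by a narrow gap at B6 array 2 (-1.16, SE 0.296, adjusted p = 0.0485). This call ended without any 1 array other than B6_B1a 2 and Sle2c1_B1a 1 (0.0847 to 0.135). The other Cxcl13 probe set, which was not well measured, was called lower too. It read 3.02 units in B6 and 1.19 in Sle2c1 (-1.83, adjusted p = 0.00284). Il6, a cytokine of B cell and plasma cell growth, read 2.11, 1.92, 2.41 and 2.64 units in B6 and 1.44, 1.15, 0.73 and 1.33 in Sle2c1. It fell by 1.11 (SE 0.176, adjusted p = 0.00234) and kept its call without any 1 array. Ltbp1, which holds latent TGF-β in the matrix, fell by 1.09 from 3.00 ± 0.255 to 1.92 ± 0.446 units (adjusted p = 0.0345), lost without any 1 array other than Sle2c1_B1a 4 (0.0538 to 0.0947). Other probe sets of Ltbp1 read near the floor and did not pass (-0.01 and 0.33).

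Transcription factors and an interferon-inducible gene follow. Batf, an AP-1 family factor of activated lymphocytes, read 1.95, 1.62, 1.59 and 1.55 units in B6 and 1.46, 0.67, 0.51 and 0.91 in Sle2c1. It fell by 0.79 (SE 0.154, adjusted p = 0.0102). Stat4, which carries signals of the Il12 receptor and type I interferon, read 2.36, 2.28, 2.10 and 1.99 units in B6 and 1.64, 1.80, 1.49 and 1.19 in Sle2c1. It fell by 0.65 (SE 0.118, adjusted p = 0.00591). Neither gene's groups overlapped, and both calls held without any 1 array. Gbp2b, a GTPase of cell-intrinsic defence, fell by 0.96 (adjusted p = 0.0495); its value on Sle2c1_B1a array 4 was 0.57 units and on the other 3 Sle2c1 arrays 1.51 to 2.09. That call ended without B6_B1a 1, 2 or 3 or Sle2c1_B1a 2 (0.0687 to 0.148).

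Lmna, which encodes the nuclear lamins A and C, read 2.96, 2.81, 2.77 and 3.12 units in B6 and 2.15, 1.77, 1.98 and 1.94 in Sle2c1 (-0.96, SE 0.14, adjusted p = 0.00137). Its other probe sets differed among themselves: 1 was called lower (-1.15), and the other 3, which did not pass, differed by -0.71, 0.21 and 0.16. Acss1, a mitochondrial acetyl-CoA synthetase, read 3.35, 3.05, 2.89 and 2.94 units in B6 and 2.53, 2.41, 2.46 and 2.48 in Sle2c1 (-0.59, SE 0.0862, adjusted p = 0.00137), and its other probe set was called lower as well. The membrane protein Tmem245 fell by 0.64 (adjusted p = 0.00103), Pxdc1 by 0.64 (0.00361) and the small GTPase Rab32, which acts in the making of lysosome-related organelles, by 0.57 (0.0145). All 5 calls held without any 1 array. Dse, an enzyme of dermatan sulfate synthesis, fell by 0.74 (adjusted p = 0.0217), a call that ended without B6_B1a 1 or 4 or Sle2c1_B1a 3 (0.0538 to 0.0751).

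Jchain, the joining chain of secreted IgM and IgA, read 2.58, 2.68, 2.53 and 2.31 units in B6 and 1.96, 2.19, 1.57 and 2.03 in Sle2c1. It fell by 0.59 without overlap (SE 0.11, adjusted p = 0.00797). The kappa variable gene among the 15 named ones fell by 0.64 (adjusted p = 0.0194), which ended without B6_B1a 1 or 2 or Sle2c1_B1a 4 (0.0522 to 0.0679). Of 12 Igkv genes tested, 2 were lower and 0 higher by limma, with a median difference of -0.372; such genes resemble each other in sequence, and a probe set may read several of them. Lyz2, the lysozyme of myeloid cells, belonged to this set as well: 2.97, 2.13, 2.95 and 3.47 units in B6 and 1.93, 1.97, 2.12 and 2.05 in Sle2c1 (-0.86, SE 0.194, adjusted p = 0.0246). B6 array 2 all but met the Sle2c1 values, and the call ended without B6_B1a 1 or 3 or Sle2c1_B1a 2 (0.0557 to 0.0721).

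Small but tight differences were found at the highest levels. The genes named in this paragraph were chosen for their level, above 3 units over the 8 arrays, after their values were seen. Rell1, a relative of the TNF receptor Relt, read 3.41, 3.45, 3.44 and 3.33 units in B6 and 3.06, 2.91, 2.98 and 2.84 in Sle2c1 (-0.46, SE 0.0736, adjusted p = 0.00243). Glul, glutamine synthetase, read 3.38 to 3.43 units in B6 and 3.08 to 3.19 in Sle2c1 (-0.27, SE 0.0464, adjusted p = 0.00408), a gap several times the SD of either group (0.0216 and 0.0497). Mef2c, a transcription factor required for B cell responses through the antigen receptor, fell by 0.30 (adjusted p = 0.0134), and 3 of its 4 other probe sets were called lower. The selenium transport protein Selenop fell by 0.28 (0.0126), the membrane protein Myadm by 0.39 (0.00391) and the α4 integrin Itga4, which binds Vcam1, by 0.28 (0.0157). These 6 calls held without any 1 array. The spectrin Sptbn1 fell by 0.22 (0.0212), with all 5 of its other probe sets lower and 0 of them called by limma. Its own call ended without B6_B1a 3 or 4 or Sle2c1_B1a 2. Other lower genes of this level lost their calls as well. Kbtbd11, Rassf3, Arhgef18 and Spib did so without any 1 of 6 arrays, Zmiz1 of 7 and Cobll1 of 3. The groups of Kbtbd11 and Rassf3 overlapped.

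The well-measured genes that rose in Sle2c1_B1a came mostly from low levels. Cenpp, a kinetochore protein, read 1.06, 0.95, 0.61 and 0.61 units in B6 and 2.15, 2.07, 2.00 and 1.99 in Sle2c1. It rose by 1.25 (SE 0.109, adjusted p = 1.5e-05), and every Sle2c1 array read above every B6 array by a wide gap. Of its 2 other probe sets, 1 had the same direction and 0 were called by limma. Brca1, which acts in repair of DNA breaks, read 1.25, 1.02, 0.80 and 1.25 units in B6 and 1.71, 1.88, 1.58 and 1.55 in Sle2c1 (0.60, SE 0.11, adjusted p = 0.00686). Other probe sets of Brca1 did not pass and had differences of -0.16 and 0.11. Slamf7, a receptor of plasma cells and activated B cells, read 1.58, 1.60, 1.44 and 1.85 units in B6 and 1.95, 2.09, 2.02 and 2.37 in Sle2c1. It rose by 0.49 without overlap (SE 0.102, adjusted p = 0.0157), and its call ended without B6_B1a 3 (0.0554).

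The transcription regulator Tceal8 rose by 0.70 (adjusted p = 0.00804), the antisense transcript Taco1os by 0.71 (0.00143) and the hydrolase family gene Fahd2a by 0.50 (0.0136). With Cenpp and Brca1, these were the 5 of the 15 named higher genes that kept their calls without any 1 array. Other probe sets of Fahd2a did not pass and had differences of 0.0, 0.32, -0.53 and -0.02. Efnb2, an ephrin ligand, rose by 1.26 from 0.77 ± 0.12 to 2.03 ± 0.365 units (adjusted p = 0.0468), lost without any 1 array other than Sle2c1_B1a 1 (0.0728 to 0.119), and its 2 other probe sets had the opposite direction. Clec1a, a C-type lectin, rose by 0.89 and Meiob, a meiosis gene, by 0.45 (0.0227 each). The calls of Clec1a ended without B6_B1a 2 or Sle2c1_B1a 4 (0.0532 and 0.0622), and those of Meiob without Sle2c1_B1a 2 or 3 (0.0538 and 0.0639). The other 6 named genes, Zfp983, Map9, Kctd16, Spindoc, Zscan29 and Sfxn5, rose by 0.45 to 0.83 and each lost its call without any 1 of 4 to 6 arrays.

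**Figure D2:**
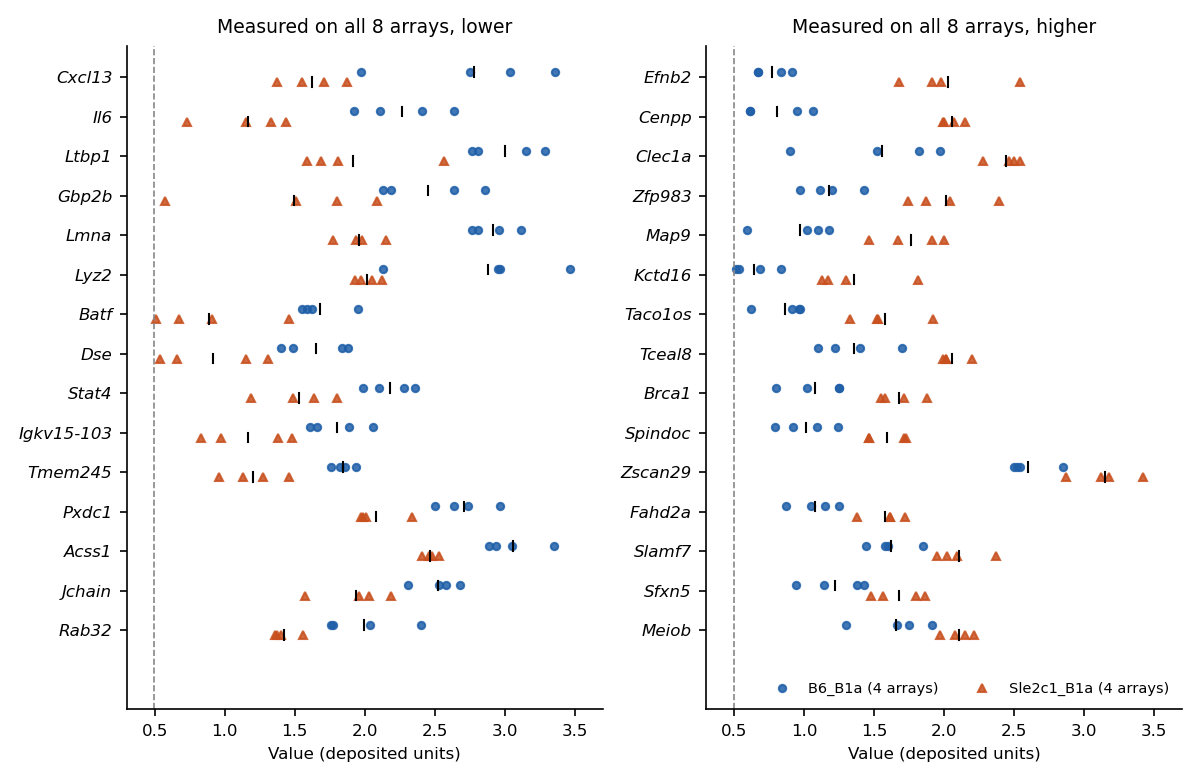
Values on each array, in deposited units, of the 15 lower (left) and 15 higher (right) named genes with the largest differences among well-measured features; circles are the 4 B6_B1a arrays, triangles the 4 Sle2c1_B1a arrays, black ticks the group means and the dashed line the floor at 0.495. The groups do not overlap for any of the 30 genes, which the choice of genes required.

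The calls of well-measured genes moved with the fit. Fits without 1 array kept the 8 Bs arrays in the estimate of the spread. With only the 8 B1a arrays, 2 of the 15 named higher and 3 of the 15 named lower genes kept their calls. With the replicate number as a block over these 8 arrays, 2 and 0 did. The counts over all well-measured features moved too. With only the 8 B1a arrays fitted, 17 were higher and 14 lower; adjusted among well-measured features alone, 19 and 31; and with each array centred on its median, 29 and 105, where the median of well-measured features was -0.13. Leaving out 1 array gave 30 to 102 higher and 41 to 153 lower; the counts without Sle2c1_B1a 1 were 95 and 153, without B6_B1a 4 they were 102 and 104, without B6_B1a 1, 2 and 3 they were 36 and 41, 30 and 45, and 47 and 50, and without Sle2c1_B1a 2, 3 and 4 they were 38 and 62, 52 and 61, and 43 and 100.

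Features at the background in 1 strain are given apart, since they were sorted by the very levels compared. Of the 107 that vanished in Sle2c1_B1a, 65 passed the test (50 named genes), and of the 181 that appeared, 108 passed (65 named); nothing is read from these counts. A group wholly at the floor has an SD of 0, which lowers the fitted spread; with such groups left out of it, 55 appearing and 27 vanishing features passed. Without Sle2c1_B1a 1, 129 of the features then vanishing passed. Of the 10 vanishing genes named, Timd4, C1qb and Apoe belong to the list of macrophage markers. Timd4, a receptor for dying cells on resident peritoneal macrophages, read 2.43, 1.54, 2.16 and 2.85 units in B6 and was at the floor on all 4 Sle2c1 arrays, a fall of at least 1.75 (SE 0.257, adjusted p = 0.00137). C1qb, a chain of complement C1q, read 2.30, 1.22, 2.29 and 2.85 units in B6, a fall of at least 1.67 (adjusted p = 0.00157). Apoe, the lipid carrier, read 1.75, 1.50, 1.64 and 1.92 units in B6, a fall of at least 1.21 (adjusted p = 2.97e-06). On each of these genes B6 array 2 was lowest and B6 array 4 highest.

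Others of the vanishing genes, such as the following, were on no macrophage list. Ednrb, an endothelin receptor, fell by at least 1.70 (2.28, 1.29, 2.29 and 2.94 units in B6, adjusted p = 0.00169). Lpl, lipoprotein lipase, fell by at least 1.12 (1.57, 1.33, 1.60 and 1.97 units in B6, adjusted p = 0.00088). The matrix protein Ecm1 fell by at least 1.25 (adjusted p = 7.09e-05) and the prostaglandin E synthase Ptges by at least 1.19 (0.00761). Hsd3b1, a steroid dehydrogenase, fell by at least 1.04 (0.0159), which ended without B6_B1a 2 (0.0561); its B6 values of 0.94, 1.86, 2.17 and 1.18 had array 1 lowest and array 3 highest.

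The sets at the background in some arrays only held 274 higher and 173 lower features (2.18% and 1.38% of 12566). The lower named genes were Serpinb2, Prg4, Fn1, the neutrophil chemokine Cxcl1, Pf4 and Adamts4. Serpinb2, a protease inhibitor of stimulated macrophages, read 3.08, 2.19, 3.13 and 3.48 units in B6 and 2.07, 1.50, 1.44 and floor in Sle2c1 (-1.59, adjusted p = 0.0051). The lubricin gene Prg4 (-1.54), fibronectin Fn1 (-1.36, 0.00871) and the aggrecanase Adamts4 (-1.25, 1.5e-05) fell as well. Prg4 was near the floor in Bs (0.68 units in B6_Bs, strain difference -0.14). In B1a it was above the floor on 4 B6 and 2 Sle2c1 arrays. It passed the filter mainly through the B6_B1a arrays, so that its value is given without a p. Platelet factor Pf4 fell by 1.34. It was next to the floor in Bs (0.569 units in B6_Bs, strain difference -0.07). It passed the filter mainly through the B6_B1a arrays, so that its value is given without a p. Cxcl1 read 2.41, 2.61, 2.96 and 3.22 units in B6 and 1.97, 1.45, floor and 1.88 in Sle2c1 (-1.35, SE 0.277, adjusted p = 0.0146), and its 2 other probe sets were called lower too. Adamts4 read 1.62, 1.92, 1.94 and 1.61 units in B6 and 0.61, floor, floor and floor in Sle2c1. The calls other than those of Pf4 and Prg4 held without any 1 array.

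Markers of macrophages moved with these genes. Of 20 macrophage markers measured, 7 were lower (Timd4, C1qb, Prg4, Fn1, Apoe, Lyz2 and the growth factor receptor Csf1r, by at least 0.82) and 0 higher by limma, with 13 at an unadjusted p under 0.05. Prg4 is in this count although it passed the filter mainly through the B6_B1a arrays. The median difference of the list was -0.775, and -0.962 to -0.542 without any 1 array. Their mean read 1.71, 1.20, 1.72 and 2.17 units on the B6 arrays and 0.99, 0.97, 1.03 and 0.96 on the Sle2c1 arrays, and their summed level ran from 23.9 to 43.3 in B6 and from 19.2 to 20.5 in Sle2c1. On all Sle2c1 arrays 9 of the 20 were at the floor, Timd4, C1qb, C1qc, Csf1r, Vsig4, Cd5l and Marco among them, while 0 were so on all B6 arrays. Adgre1, the gene of the F4/80 antigen, read 2.45 units in B6 and 1.97 in Sle2c1 (-0.48, adjusted p = 0.0508), and Cd14 and Mrc1 differed by -0.12 and -0.08 (0.726 and 0.78). In such preparations fewer cells of a type and less RNA per cell cannot be told apart.

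The part of these markers in the lower genes was not tested, and the order of the B6 arrays is given beside them. The macrophage mean was lowest on B6 array 2 and highest on B6 array 4. That order held for 15 of the 65 vanishing features called (23.1%), for 28 of the 173 lower features that lay between (16.2%) and for 8.06% of the 12053 features above the floor on all 4 B6 arrays. Among the well-measured lower features it held for 7 of 91 (7.69%), against 7.73% of all well-measured features. Members of the macrophage list, whose mean set the order, are in these counts. Timd4, C1qb, Apoe and Csf1r are among the 15 and Lyz2 among the 7, so that these shares match the list in part to itself. Of the 25 named lower genes outside the macrophage list it held for 9. The 7 well-measured ones were Cxcl13, Il6, Lyz2, Lyz1, Ccl9, Rab32 and Sptbn1. Batf, Stat4, Lmna, Acss1, Jchain, Mef2c and Glul had other orders. The mean of the 91 well-measured lower features was 2.44 to 2.58 units on the B6 arrays, with arrays 3 and 4 lowest, and 2.00 to 2.12 on the Sle2c1 arrays.

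**Figure D3:**
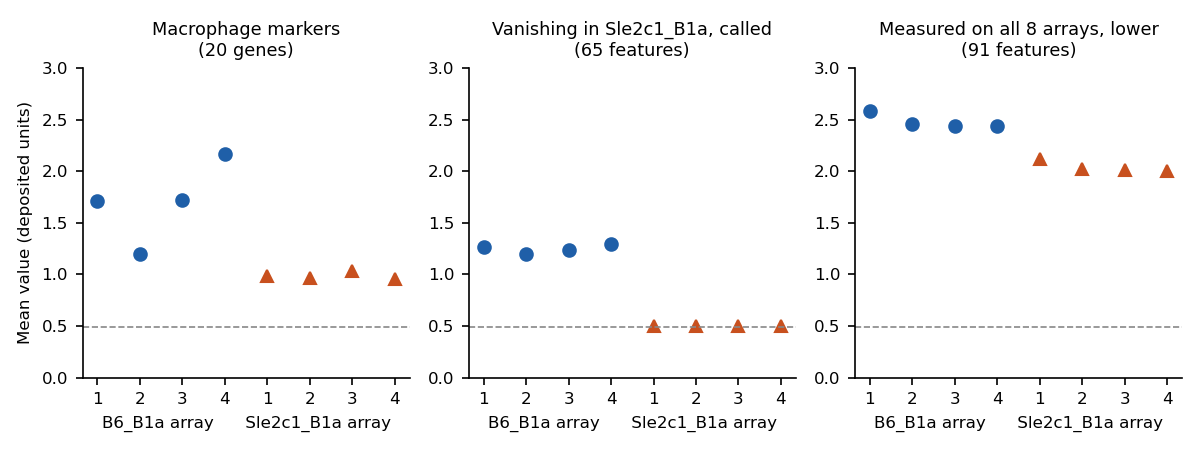
Mean value on each B1a array, in deposited units, of the 20 macrophage markers (left), of the 65 vanishing features that passed the test (middle) and of the 91 well-measured lower features (right); circles are B6_B1a, triangles Sle2c1_B1a, and the dashed line is the floor. The macrophage markers range from 1.20 to 2.17 units over the B6 arrays. The right panel lies within 2.44 to 2.58 there; the features of the middle and right panels passed a test that favours a small spread within groups, so that both their gap and their even B6 means follow in part from how they were chosen.

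The 10 named genes that appeared in Sle2c1_B1a were at the background in B6. Sall3, a zinc finger factor of neural and limb development, was at the floor on all 4 B6 arrays and read 1.99, 1.85, 1.66 and 1.92 units in Sle2c1, a rise of at least 1.36. Limch1, an activator of non-muscle myosin, read 1.72, 1.92, 1.77 and 1.89 units in Sle2c1 (at least 1.33). Sox3, a factor of neural progenitors, read 1.86, 1.70, 1.73 and 1.82 (at least 1.28, adjusted p = 0.000365). The 4 Sle2c1 arrays lay close together for these genes, array 4 included. Sall3, Limch1 and Tdpoz1 were at or next to the floor in both Bs groups as well, so that they passed the filter through the Sle2c1_B1a arrays alone and had to differ; their values are given without a p. Tdpoz1, a gene of the early embryo, rose by at least 1.24 and the liver and neural factor Onecut2 by at least 1.12 (0.000135). The semaphorin receptor Plxna2 rose by at least 1.22 (0.0294), the neuron navigator Nav3 by at least 1.21 (0.00457), the ephrin receptor Epha7 by at least 1.19 (0.0061), the actin regulator Carmil2 by at least 1.14 (0.0151) and the β-defensin Defb1 by at least 1.06 (0.00163). The call of Plxna2 ended without any 1 array other than Sle2c1_B1a 1 and 3 (0.0529 to 0.0721).

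**Figure D4:**
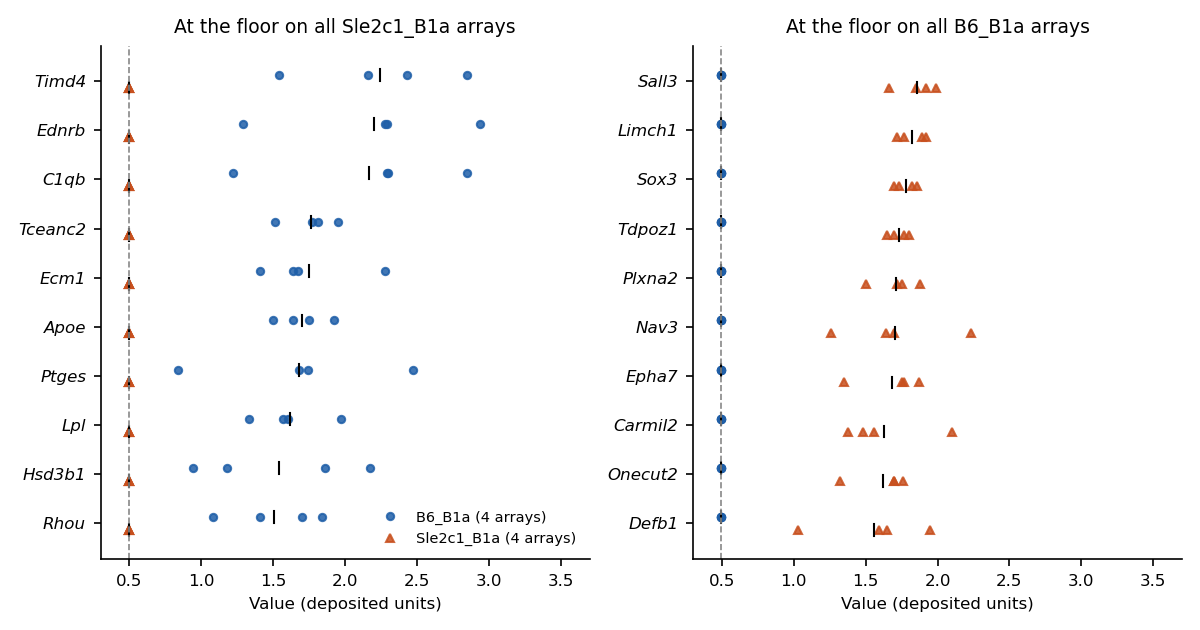
Values on each array, in deposited units, of the 10 vanishing (left) and 10 appearing (right) named genes with the largest differences; circles are B6_B1a, triangles Sle2c1_B1a, black ticks the group means and the dashed line the floor at 0.495. Points on the dashed line were raised to it and have no order; the highest B6 value on the left is 2.94 units for Ednrb and the highest Sle2c1 value on the right 2.23 for Nav3.

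The higher genes that lay between included 6 named ones. Ang, a secreted ribonuclease, rose by 1.59 (0.99, floor, floor and floor in B6; 2.19, 2.13, 2.20 and 2.32 in Sle2c1; adjusted p = 5.62e-05). Other probe sets of Ang did not pass and had differences of -0.23 and 0.04. The keratin Krt13 and the testis gene Pxt1 rose by 1.47 each (3.44e-06 and 3.72e-05). The neural factor Sox11 and the phospholipase Pld1 rose by 1.41 each (6.92e-05 and 1.27e-06). These calls and that of Ang held without any 1 array. The olfactory receptor Olfr480 rose by 1.42. It was at or next to the floor in both Bs groups, so that it passed the filter mainly through the Sle2c1_B1a arrays. Its value is given without a p. Of the 23 olfactory receptor genes tested 4 were higher and 0 lower by limma, of 35 keratin genes 2 and 0, of 14 Sox genes 2 and 0, of 13 defensin genes 1 and 0, of 22 vomeronasal receptor genes 0 and 0, and of 308 zinc finger genes 7 and 4. Over all features 1.93% were higher and 1.45% lower. These families were counted with the results in view. Of the appearing features called, 39.8% had no single gene, beside 44.2% of all appearing features and 33.4% of all features. Of 29 other probe sets of the appearing genes, 26 also had a positive difference and 0 were called by limma.

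**Figure D5:**
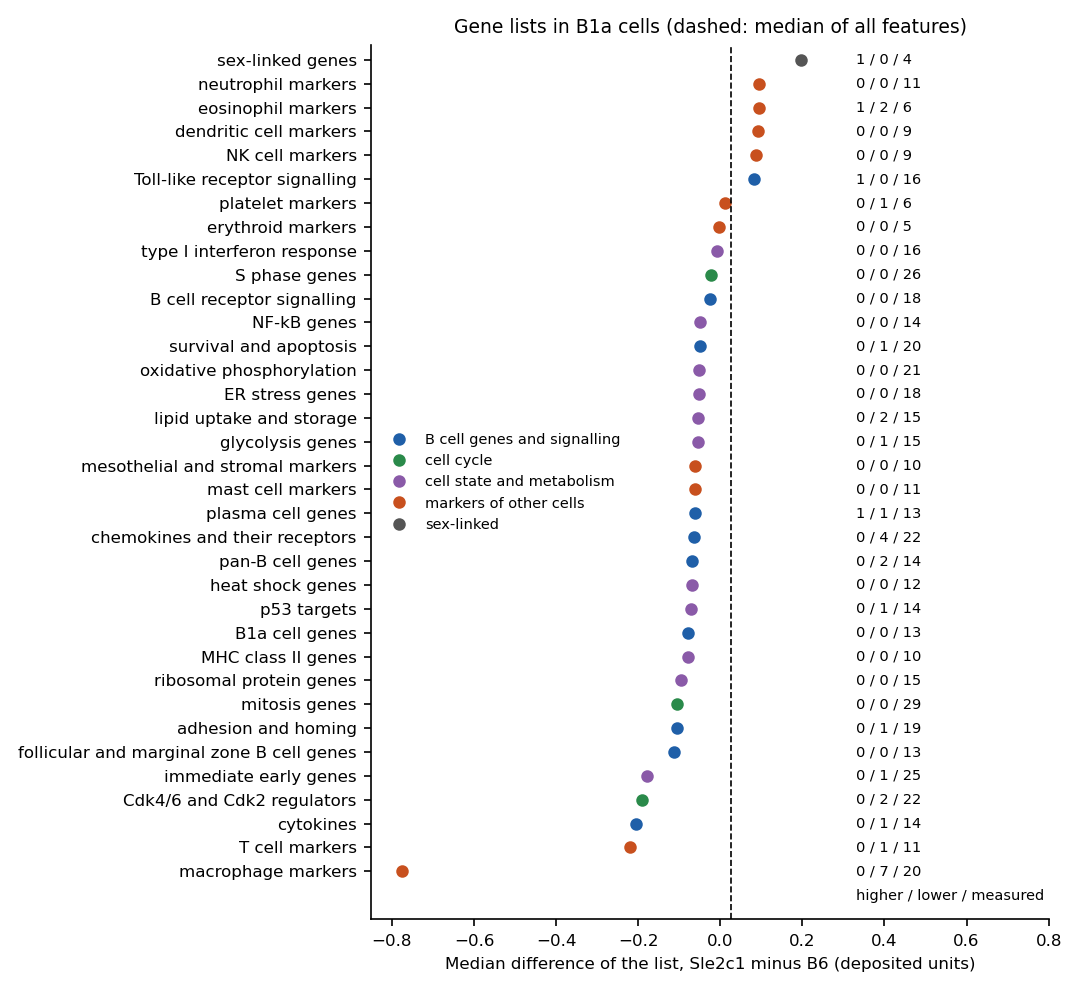
Median difference, Sle2c1 minus B6 in deposited units, of 35 gene lists in B1a cells, coloured by kind, with the numbers of members higher, lower and measured at the right; the dashed line is the median of all features, 0.025. Macrophage markers lie furthest to the left at -0.775, and 29 lists lie left of the line.

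Genes of B cell identity showed few calls. Of 13 B1a cell genes measured, 0 passed by limma in either direction and 0 had an unadjusted p under 0.05 (median -0.078): Plac8 read 3.76 and 3.71 units, the tolerance checkpoint Ctla4 2.42 and 2.60 and the factor Zbtb32 2.15 and 2.02 in B6 and Sle2c1. Bhlhe41 (0.716 and 0.651) and Itgam (0.892 and 0.711) read near the floor. They were above it on 3 and 4 B6 arrays and on 1 Sle2c1 array each. Of 14 pan-B genes, 2 were lower (median -0.069). They were the guanine exchange factor Ralgps2 (-0.48, adjusted p = 0.0112) and the Ets factor Spib (-0.34, 0.0476), which lost its call without any 1 array other than B6_B1a 4 and Sle2c1_B1a 1 (0.0619 to 0.135). Among 13 follicular and marginal zone genes 0 passed, with 3 at an unadjusted p under 0.05 (median -0.112). Among 18 genes of B cell receptor signalling 0 passed, with 1 at an unadjusted p under 0.05 (median -0.026). Of 13 plasma cell genes, Slamf7 was higher and Jchain lower (median -0.062), while Xbp1, Prdm1 and Irf4 differed by -0.10, 0.09 and -0.18 (0.581, 0.805 and 0.155).

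Signalling lists had 0 to 4 calls each. Tlr7, the endosomal sensor of single-stranded RNA, was the only 1 of 16 Toll-like receptor genes to pass: 2.27, 2.40, 2.48 and 2.48 units in B6 and 2.55, 2.81, 2.92 and 2.72 in Sle2c1 (0.34, SE 0.0805, adjusted p = 0.0319). Its groups were separate, and the call ended without B6_B1a 1, 2 or 3 or Sle2c1_B1a 2 or 3 (0.0508 to 0.102); the list's median, 0.081, turned to -0.044 with median centring. Of 14 cytokine genes Il6 alone passed (median -0.206). Il10, a product of B1a cells, read 2.81 ± 0.0469 and 2.65 ± 0.0966 units (-0.16, 0.128), and Tnf, Lta and Ltb differed by at least -0.72, by -0.68 and by -0.60 (0.109, 0.0813 and 0.0829). Of 22 chemokine and receptor genes 4 were lower and 0 higher by limma (median -0.063): Cxcl13, Cxcl1, the scavenger receptor Ackr3 (by at least 0.89, 0.00016) and the macrophage chemokine Ccl9 (by 0.78, 0.0209). The call of Ccl9 ended without B6_B1a 1 or 3 or Sle2c1_B1a 2 (0.0511 to 0.0622). Itga4 was the single call of 19 adhesion genes (median -0.105) and the survival kinase Pim2 (-0.34, 0.0256) that of 20 survival genes (median -0.049), the latter ending without B6_B1a 1, 2 or 3 or Sle2c1_B1a 2 or 3 (0.0553 to 0.078).

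Cell cycle genes gave few calls beside Cdkn2c. Over all 22727 features, 3904 had an unadjusted p under 0.05. Of 22 regulators of Cdk4, Cdk6 and Cdk2, 2 were lower and 0 higher by limma, with 10 at an unadjusted p under 0.05 (median -0.19). E2f2, a transcription factor held by the retinoblastoma protein, fell by 0.38 (2.78, 2.74, 2.59 and 2.62 units in B6; 2.45, 2.13, 2.36 and 2.26 in Sle2c1; adjusted p = 0.042), a call lost without any 1 array other than Sle2c1_B1a 1 (0.0541 to 0.123). Cyclin D2 (Ccnd2), the Cdk inhibitor p21 (Cdkn1a) and the related inhibitor Cdkn2d differed by -0.28, -0.52 and -0.32 (0.07, 0.0916 and 0.126). Among 26 S phase genes and 29 mitosis genes 0 passed by limma, with 1 and 5 at an unadjusted p under 0.05 (medians -0.022 and -0.105).

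Lists of cell state were near the median of all features or somewhat below it. Of 25 immediate early genes the response gene Ier2 was lower (-0.74, adjusted p = 0.0059; median -0.178) and 12 had an unadjusted p under 0.05. Gadd45b, a stress sensor, was lower among 14 p53 targets (-0.35, 0.012; median -0.072), the phosphofructokinase Pfkl among 15 glycolysis genes (-0.68, 0.0109; median -0.055) and Lpl and the desaturase Scd2 (-0.40, 0.0435) among 15 lipid genes (median -0.055). The call of Scd2 ended without B6_B1a 1, 2 or 3 or Sle2c1_B1a 2 or 3 (0.0981 to 0.132). In 7 lists 0 passed by limma: NF-kB (14 genes, median -0.049), type I interferon (16, -0.008), MHC class II (10, -0.078), heat shock (12, -0.07), ER stress (18, -0.053), ribosomal protein (15, -0.095) and oxidative phosphorylation genes (21, -0.052). At an unadjusted p under 0.05 they counted 3, 1, 0, 5, 2, 0 and 0.

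Markers of cells other than macrophages had few calls. Of 11 T cell markers Cd3g was lower (1.63, 1.57, 1.38 and 1.85 units in B6, and 1.48, floor, floor and floor in Sle2c1). Sle2c1 array 1 lay inside the B6 range. The list median was -0.22, with 6 at an unadjusted p under 0.05. Of 6 eosinophil markers Epx (-0.66) and Alox15 (-1.07, a call lost without B6_B1a 1) were lower, whereas Ccr3 rose by at least 0.96 (0.018). The median of the list was 0.094. Cd3g, Epx and Alox15 were at or next to the floor in both Bs groups. Each was above it on 4 B6_B1a arrays and 1 Sle2c1_B1a array. They passed the filter mainly through the B6_B1a arrays, so that their values are given without a p. Alox15 is also made by resident peritoneal macrophages, and its B6 values were lowest on array 2 and highest on array 4. Pf4 was the single call of 6 platelet markers (median 0.011, and -0.021 and -0.024 with quantile normalization and median centring). Among NK (9 genes), neutrophil (11), mast cell (11), dendritic cell (9), erythroid (5) and mesothelial and stromal markers (10), 0 passed by limma, with 0, 1, 1, 1, 0 and 2 at an unadjusted p under 0.05. Their medians were 0.088, 0.095, -0.061, 0.092, -0.004 and -0.061; that of dendritic cell markers turned negative with either scaling and that of neutrophil markers with median centring. Of 4 sex-linked genes the Y-linked Uty was higher by at least 0.92 (0.0386; list median 0.197), at the floor on all B6 arrays and on Sle2c1 array 3 and at 1.63 to 1.78 on the other 3, on arrays where Xist read 3.26 to 3.28. Its call ended without any 1 array other than Sle2c1_B1a 3 (0.0668 to 0.103).

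The strain difference in splenic B cells shared few of the calls made in B1a. Its group means rest on arrays of their own, but both tests use the same estimate of each feature's spread. The 2 sets of calls are therefore not independent. In Bs 35 features were called (0.154%), 28 higher and 7 lower. Of these, 21 were also called in B1a, all in the same direction, which is 60.0% of the Bs calls and 2.73% of the B1a calls. Over all features, 3.38% were called in B1a. Higher in both were 18, Ang, Krt13, Pxt1 and Pld1 among them (1.03, 0.71, 0.96 and 0.72 in Bs), and lower in both were Cdkn2c, Tceanc2 and 1 unnamed probe set. The test of the difference between the 2 strain effects called 98 features (0.431%), of which 91 were called in B1a and 6 of those were well measured. Timd4 (-1.92), Apoe (-0.89), Ecm1 (-1.29) and Lpl (-1.30) fell more in B1a than in Bs (adjusted p = 0.0358, 0.00557, 0.00557 and 0.0177). Of the well-measured named genes, Cenpp (1.00, 0.00887), Tmem245 (-0.70, 0.0299) and Acss1 (-0.60, 0.0492) differed so. For Cdkn2c the effects were -0.60 in B1a and -0.89 in Bs, and their difference did not pass (adjusted p = 0.71).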

How the data were processed

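RNA of 16 cell preparations was amplified and hybridised to 1 array each; the 8 B1a arrays are described here. The values are a normalised score per probe set as deposited by the authors; its scale, log base and per-array scaling, and the software, are not given in the sources used here. That arrays number 4 per group limits the precision. Of 45101 probe sets, 34945 pair with 1 gene in the platform annotation (updated to RefSeq GRCm38.p6 symbols through Entrez identifiers, 99.42% matched), 932 with several, 9160 with none and 64 are controls, which were left out.

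Values under 0.495 units, each array's tied lowest values included, were raised to it. A probe set was kept (35032 were) if 4 or more of the 16 arrays had it above the 40th percentile of that array, and of a gene's probe sets the 1 with the highest mean, which left 15129 named genes and 7598 unnamed features. Group means were fitted over all 16 arrays with limma 3.58.1 in R 4.3.3, p-values were adjusted over every feature by the Benjamini-Hochberg method, and the threshold was 0.05; the p in brackets after a difference is this adjusted p. The scripts were tested on simulated data. P-values measure the spread between these arrays.

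Named were Cdkn2c; the 15 higher and 15 lower well-measured genes, 10 appearing, 10 vanishing and 6 of each direction in between with the largest differences among those called (without overlap of the groups); the members of a list that came first by adjusted p, at most 4 a list; and called genes among 50 on either side of Cdkn2c. Predicted genes were not named. Other genes in the text are list members, or were chosen after their values were seen, as stated there. The members and lists were chosen with earlier results of these data known. Promoters come from RefSeq's GRCm38.p6. Alternatives changed the floor, filter, probe set rule, scaling, fit, threshold and arrays.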

Additional observations from a re-analysis of the deposited data

Results flagged for a closer look

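In groups of 4 arrays, the array farthest out was set against Dixon's critical value; of 110 groups of named genes examined, 11 had such an array. In 7 of them the other 3 arrays were tied at the floor, where any value above it is singled out by construction; the other 4 stand beside the 1 in 20 groups that chance gives. The Sle2c1_B1a arrays that stood apart were array 4 for Tceal8 (2.20 units), array 1 for Pxdc1 (2.34) and array 3 for Onecut2 (1.32), and B6_B1a array 4 did so for Zscan29 (2.85). The 7 groups with the remaining 3 arrays at the floor were Ang (0.99), Krt13 (0.81) and Sox11 (0.97) on B6_B1a array 1, Pxt1 (0.93) on B6_B1a array 4, Pld1 (0.56) on B6_B1a array 3, Pf4 (0.72) on Sle2c1_B1a array 4 and Adamts4 (0.61) on Sle2c1_B1a array 1.

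The strain difference itself differed between B1a and Bs, by limma's test of that difference, for 13 of 65 named genes, beside 98 of all 22727 features (0.431%). The 65 were named for large B1a differences, which are part of this difference, so that nothing is read from the count. The B1a difference exceeded the Bs difference for Sall3 (1.36 units), Limch1 (1.32), Tdpoz1 (1.24), Olfr480 (1.42), Cenpp (1.00) and Pld1 (0.69). It was below it for Timd4 (-1.92), Ecm1 (-1.29), Lpl (-1.30), Apoe (-0.89), Adamts4 (-1.45), Tmem245 (-0.70) and Acss1 (-0.60). Sall3, Limch1, Tdpoz1 and Olfr480 were at or next to the floor in both Bs groups, so that their values restate the B1a difference. Among the other 9 the adjusted p ran from 0.000533 for Adamts4 to 0.0492 for Acss1. B1a and Bs arrays also differed in Xist and Y-linked genes, whose part in this was not tested.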

How the results depend on the processing

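Among the genes picked for naming and the list members examined with them, no called gene changed direction under an alternative. The other called features were not examined for this. The balance of higher and lower features did turn. The numbers of features higher and lower were 439 and 329, with 57 and 91 well measured, 108 appearing and 65 vanishing. They became 253 and 118, well measured 17 and 14, when only the 8 B1a arrays were fitted; 259 and 196, well measured 19 and 39, with no floor; 58 and 79, well measured 22 and 59, with tied lowest values as missing; and 258 and 196, well measured 29 and 59, appearing 55 and vanishing 27, when groups wholly at the floor were left out of the spread. At an adjusted p under 0.01 they were 222 and 117, 16 and 20, 71 and 36, and under 0.10 they were 699 and 573, 120 and 182. Array weights gave 744 higher and 112 and 164 well measured; a trended, robust fit 178 well measured lower; all probe sets kept apart 574 lower, 88 well measured higher, 168 appearing and 121 vanishing; the filter on 8 arrays 281 higher, 47 and 36; the floor at 1 unit 274 higher and 40 vanishing. Median centring left 29 well measured higher, a mean above 2 units 12 and 58, and adjustment among well-measured features 19 and 31. Quantile normalization gave 456 and 465 and median centring 443 and 459 over all features. The median difference moved from 0.025 to 0.0016 with quantile normalization and to -0.0725 with median centring. Leaving out single arrays gave 287 to 604 higher, 225 to 498 lower, 30 to 102 and 41 to 153 well measured, 105 to 156 appearing and 66 to 129 vanishing; the highest totals, 604 and 498, came without Sle2c1_B1a 1, and 290 and 287 higher without B6_B1a 2 and 3. Cdkn2c lay between -0.69 and -0.55 without single arrays. It lost its call with no floor (-3.48), the floor at the 30th percentile (-1.03), the floor at 1 unit (-0.21) and the replicate number as a block (-0.60). Over 14 alternatives that left out no array, these included, its adjusted p by limma ran from 0.0037 to 0.406. The cause of these moves was not tested.

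The labels do not say what arrays with the same replicate number share. Same-numbered deviations correlated at 0.168, 0.015, 0.060 and 0.272, and those of differing numbers at -0.354 to 0.273. These values do not settle whether the numbers pair the arrays. With the replicate number as a block over the 8 arrays, limma called 78 higher and 9 lower, well measured 5 and 0, appearing 22 and vanishing 4, with 723 and 572 well measured at an unadjusted p under 0.05; Cdkn2c was at -0.60 (adjusted p = 0.107), and 16 of 64 named calls held. Of those 64, 29 held with only the 8 arrays, 28 with no floor, 62 with quantile normalization and 56 with median centring. With only the 8 arrays, 10 of 10 appearing and 7 of 10 vanishing genes held. Of the well-measured genes, 2 of 15 higher and 3 of 15 lower did. The difference of 14 uncalled genes changed sign in 20 gene and setting pairs, none called in either, and 9 list medians in 21.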
